A study of Homo sapiens with 4 samples.

Results

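The core histone genes are described here together with the genes that make and process histone messenger RNA, in A673 cells. A673 is an established line from a human Ewing sarcoma. Members were chosen by gene symbol. The clustered genes are those that GENCODE 44, lifted to GRCh37, names H2AC, H2BC, H3C or H4C with a number. They mostly code for the canonical histones and lie mostly in clusters on chromosomes 6 and 1. The other members are the variants H2AX, H2AZ1, H2AZ2, MACROH2A1, MACROH2A2, H2AJ, H3-3A, H3-3B and H4-16, and the processing genes SLBP, NPAT, LSM10 and LSM11. That annotation gave a symbol to 58524 of the deposited genes. Histone genes that it does not name are missing from the members and from the sums below. Of 70 symbols that matched, 69 had a row among the 60617 genes of the deposited table, namely 56 clustered, 9 variant and 4 processing genes, and H2AC19 had none. H4-16 is listed as H4C16 in the annotation and was kept with the variants. H2AC25 and H2BC26 stand apart from the main clusters and were also on a list of other histone variants. They were kept with the clustered genes because their names match.

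A673 cells received DMSO, the solvent, or CBL0137 at 1 µM for 24 h, with 2 RNA-seq libraries for each condition. CBL0137 is a curaxin, a small molecule that binds DNA and traps the histone chaperone FACT on chromatin. Gene counts ran from 20483714 to 23373554 per library. One cell line was used, and the labels do not say whether the replicates are separate cultures. The p-values therefore cover the spread between these libraries alone, which may be technical. All 6 Ewing sarcoma markers checked, CD99 among them, were expressed in every library. Markers of other cell types were near 0, with 7 to 17 counts summed over 3 blood markers, 8 to 17 over 3 epithelial markers and 4 to 20 over 2 endothelial markers, the last at 4 counts in each DMSO library and 20 and 17 in CBL0137, nearly all from CDH5. CD3E was at 0 in every library. Whether such cells have a part in the values below was not tested.

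Canonical histones package newly copied DNA, and their genes are transcribed in S phase under the coactivator NPAT, which cyclin E and CDK2 activate. Their messenger RNAs usually end in a stem-loop in place of a poly(A) tail. SLBP binds that stem-loop, and the U7 particle, whose ring contains LSM10 and LSM11, guides the cut that forms the end. Variant histones are mostly made from ordinary polyadenylated messages throughout the cell cycle and replace canonical histones at particular places. Some clustered genes can also give a polyadenylated message when a cell reads past the stem-loop or leaves the cycle.

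The stem-loop is the feature that sets most clustered genes apart from most variants, so it is shown first for the members on which the results turn. Each line gives the sense strand, read from GRCh37, with the stem-loop in capitals and 5 bases on each side. It starts 32 to 50 bases after the stop codon in these 7 genes.
H2BC5 (chr6:26158810-26158835, plus strand): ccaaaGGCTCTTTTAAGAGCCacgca
H2BC11 (chr6:27100095-27100120, minus strand): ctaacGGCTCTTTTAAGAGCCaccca
H2BC12 (chr6:27114140-27114165, minus strand): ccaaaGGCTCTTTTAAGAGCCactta
H2AC6 (chr6:26124892-26124917, plus strand): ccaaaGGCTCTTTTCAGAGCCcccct
H4C8 (chr6:26285354-26285379, minus strand): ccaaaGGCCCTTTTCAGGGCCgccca
H3C1 (chr6:26021155-26021180, plus strand): gcaaaGGCTCTTTTCAGAGCCaccac
H2AX (chr11:118965603-118965628, minus strand): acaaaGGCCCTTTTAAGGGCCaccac
The motif searched was the stem-loop consensus, written as GG, any 2 bases, CTTTT, any base, AG, any 2 bases and CC, on the sense strand in the 150 bases after any annotated stop codon. It was found in every clustered gene of the table except H3C6, H2BC10 and H4C13, and in H2AX and H4-16 among the variants. It was not found in the other variants or in the processing genes. Of 9870 other protein-coding genes on the same chromosomes, 0.101% held it. The core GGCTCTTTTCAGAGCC was the most frequent, in 34 of the 70 matched symbols. The 3 H2B genes shown share the core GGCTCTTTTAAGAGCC, although H2BC5 and H2BC11 rose and H2BC12 was not called.

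After CBL0137, clustered histone messages were higher as a group in the counts, while H2AX and H2AZ1 fell. The selection of RNA was not given, and RNAs without a poly(A) tail gave almost no counts (below). How far the counts cover messages that end in the stem-loop is therefore not known. The 18 clustered genes with a poly(A) signal match at an annotated transcript end (below) held 75.02 of the 108.6 raw CPM of all clustered genes in DMSO, on average. Levels of sums are given in raw CPM, the usual counts-per-library share with gene counts as the total and no other scaling. Summed over all 56 clustered genes, with no filter, raw CPM were 111.8 and 105.5 in the DMSO libraries, replicate 1 first here and below. They were 195.6 and 205.5 in the CBL0137 libraries, a ratio of 1.846 between the means. The same sum over the 9 variants was 1662 and 1689 in DMSO and 1549 and 1547 in CBL0137, a ratio of 0.924. Neither pair of conditions overlapped. For every 100 variant counts there were 6.725 and 6.246 clustered counts in DMSO, and 12.62 and 13.28 in CBL0137. In bulk RNA, fewer cells that make a message and less message per cell cannot be told apart.

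Each of 17309 genes was tested with edgeR's quasi-likelihood test. Calls needed a fold change above 1.5 and a Benjamini-Hochberg adjusted p below 0.05. Of the 56 clustered genes, 24 passed the count filter. Of those, 9 rose, 1 fell and 14 were not called. Over all genes tested, 9.61% were called, 6.88% higher and 2.73% lower. Both CBL0137 libraries lay above both DMSO libraries for 18 of the 24 and below them for 2, against 33.5% and 33.4% of all genes tested. The median log2 fold change of the tested clustered genes was 0.56, against 0.003 over all genes tested. Among the tested genes, 4 (H2AC20, H3C1, H4C5 and H2AC13) passed the filter through 1 condition alone, the one in which each was higher, and H3C1 is the called gene of these 4. H4C12 passed on 1 library of each condition. Of the 19 that passed in both conditions, 9 rose and 0 fell, with a median of 0.75. Of the 9 variants, all tested, 1 rose, 2 fell and 6 were not called, with a median of -0.01. The variant that rose was H4-16, which is in this class because the choice by symbol named it there. Like most clustered genes it holds the stem-loop, and no poly(A) signal was found at its annotated ends. No other variant was called higher. None of the 4 processing genes was called (0 by edgeR, 0 by DESeq2 and 0 by limma-voom). Of these, 2 (SLBP and LSM11) were lower at an edgeR p under 0.05, unadjusted and adjusted, and stayed inside the fold limit.

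**Figure D1:**
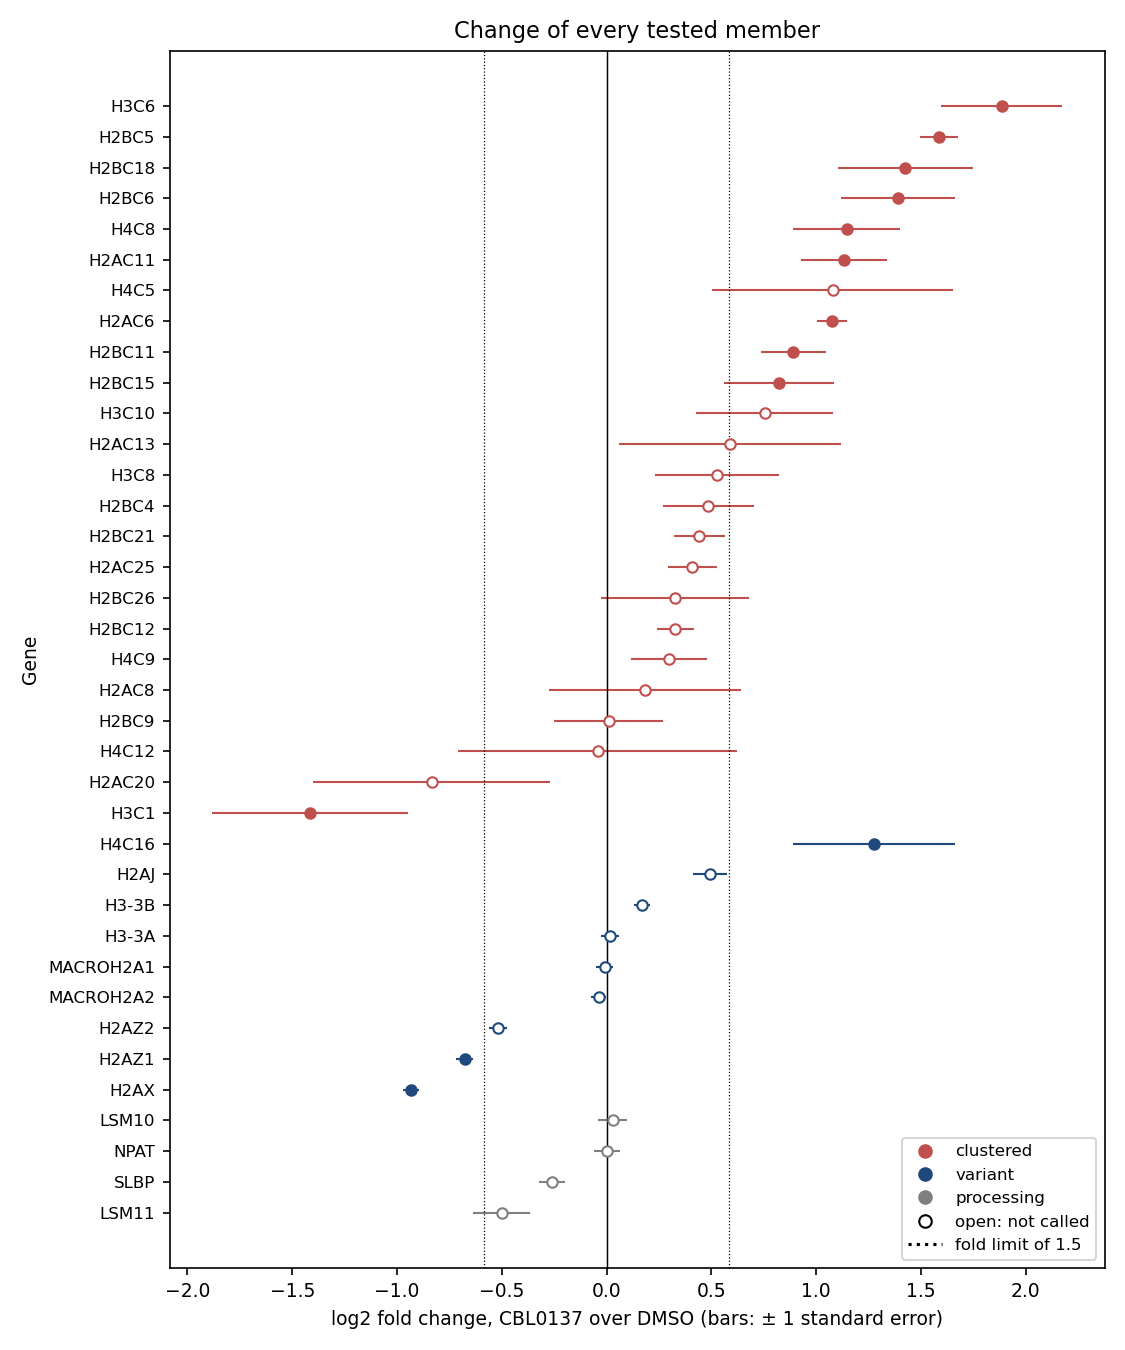
Log2 fold change of CBL0137 over DMSO for each of the 37 tested members, with bars of 1 standard error; filled points passed the adjusted p and the fold limit of 1.5 (dotted lines). Of the clustered genes (red) 21 of 24 lie above 0, variants (blue) run from -0.93 for H2AX to 1.28 for H4-16 (shown as H4C16), and processing genes (grey) lie between -0.50 and 0.03.

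Clustered H2A and H2B genes held most of the added counts. The proteins pair with each other as dimers in the nucleosome. H2AC6, a canonical H2A gene on chromosome 6 (26124373 to 26139344, GRCh37), measured 25.87 and 28.29 CPM in DMSO and 53.57 and 60.36 CPM in CBL0137. CPM given for single genes are scaled by TMM. On the log2 scale H2AC6 rose by 1.07 ± 0.07 (SE here and below; edgeR adjusted p = 9.7e-12). H2BC5, a canonical H2B gene nearby (26158350 to 26171577), measured 13.09 and 10.79 CPM in DMSO and 35.33 and 36.35 CPM in CBL0137. H2BC5 rose by 1.59 ± 0.09 on that scale (edgeR adjusted p = 8.6e-13). Both libraries of CBL0137 lay above both of DMSO for each gene, and these were the clustered genes with the most counts apart from H2BC12.

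H2BC11, another H2B gene (27093676 to 27100574 on chromosome 6), measured 4.245 and 4.441 CPM in DMSO and 8.048 and 8.074 CPM in CBL0137, a rise of 0.89 ± 0.15. Its neighbour H2AC11, an H2A gene read in the opposite direction, measured 2.232 and 2.265 CPM in DMSO and 4.810 and 5.051 CPM in CBL0137, a rise of 1.13 ± 0.21. The CBL0137 libraries of both genes were close to each other and well above DMSO. The edgeR adjusted p was 5.5e-05 for H2BC11 and 9.3e-05 for H2AC11.

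The other clustered genes that rose had few counts. H3C6, an H3 gene, measured 0.8315 and 0.8882 CPM in DMSO and 3.095 and 3.281 CPM in CBL0137, and its rise of 1.89 ± 0.29 was the largest among the members tested (edgeR adjusted p = 1.1e-05). It is also the called clustered gene in which no stem-loop match was found. H2BC6 (1.39 ± 0.27), H2BC18 (1.43 ± 0.32) and the H4 gene H4C8 (1.15 ± 0.25) rose from 1.191, 0.838 and 1.520 CPM in DMSO on average. These 4 genes had 18 to 38 counts in each DMSO library and 43 to 80 in each CBL0137 library, so their folds are less precise than that of H2BC5. H2BC15 rose by 0.82 ± 0.26 (edgeR adjusted p = 0.016), but was not called by DESeq2 (adjusted p = 0.093), without DMSO replicate 2 (0.59, adjusted p = 0.17) or without CBL0137 replicate 1 (0.68, adjusted p = 0.1).

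**Figure D2:**
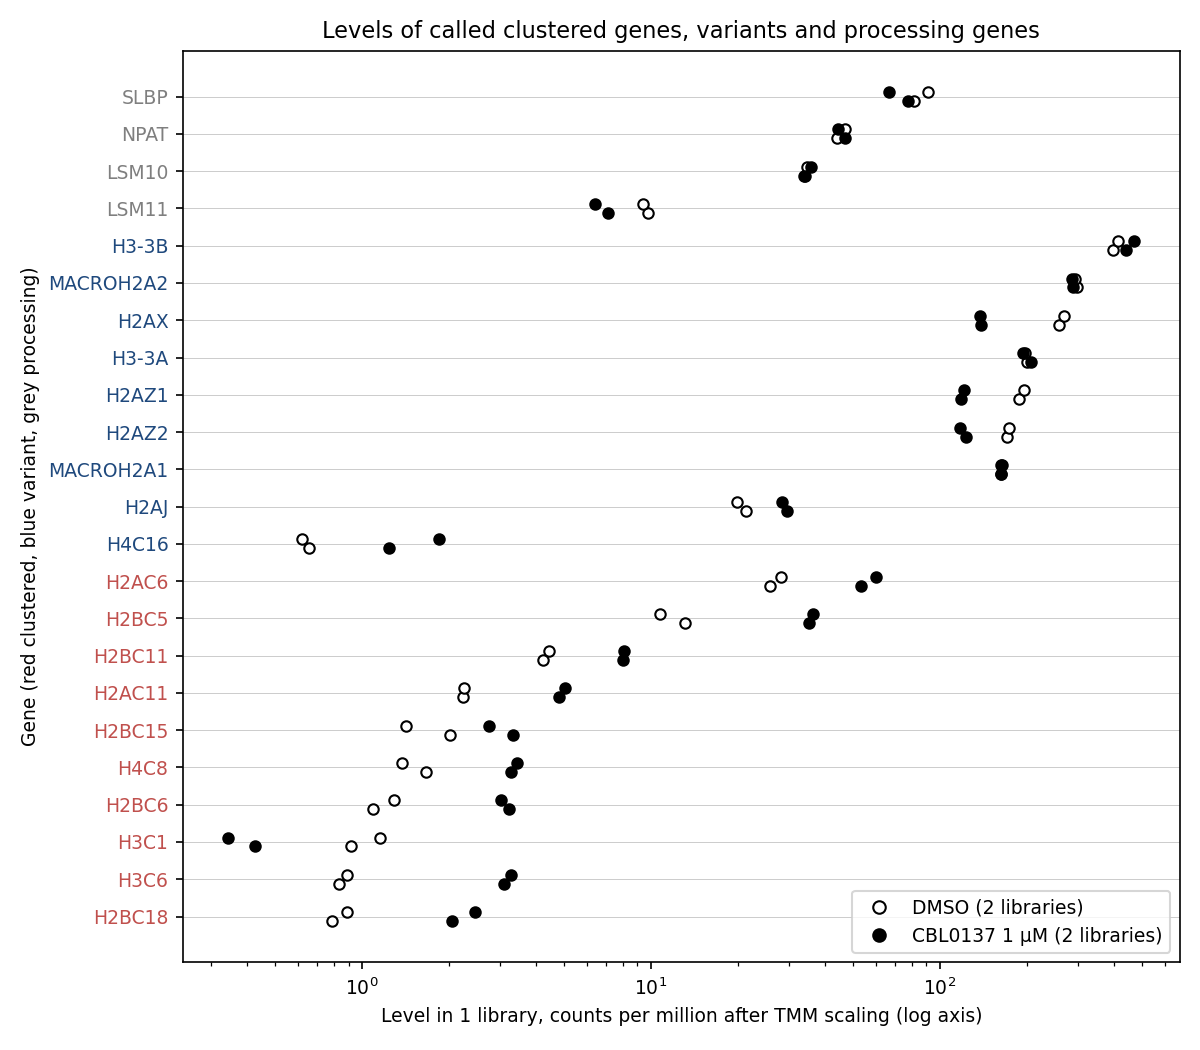
Level of each called clustered gene, each variant and each processing gene in each library, in CPM after TMM scaling on a log axis (open circles DMSO, filled circles CBL0137, 2 libraries each; where only 1 symbol shows, circles lie over each other, as for MACROH2A1). H2BC5, H2AC6 and 7 other clustered genes lie to the right of DMSO and H3C1 to the left (H4-16 is shown as H4C16), while H2AX, H2AZ1 and H2AZ2 shift to the left at levels above 100 CPM.

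H3C1 was the clustered gene that fell. This canonical H3 gene had 21 and 26 counts in DMSO and 9 and 8 in CBL0137. The change was -1.41 ± 0.47 on the log2 scale (edgeR adjusted p = 0.019). It was given no adjusted p by DESeq2, and its call was lost when any single library was left out (-1.57 to -1.25, adjusted p from 0.051 to 0.2). The H2A gene H2AC20, at 12 counts in each DMSO library and 6 and 7 in CBL0137, measured -0.83 ± 0.57 and was not called. H4C12 measured -0.04 ± 0.66 with 16 and 2 counts in the DMSO libraries, and its sign turned under several settings.

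The remaining tested clustered genes measured from 0.01 to 1.08 and were not called. H2BC12, an H2B gene, had the highest level per length of any clustered gene and measured 21.62 and 18.83 CPM in DMSO and 24.62 and 26.12 CPM in CBL0137. Its log2 fold change of 0.33 ± 0.09 (edgeR adjusted p = 0.0048) stayed inside the fold limit although its conditions did not overlap. H2BC21 (0.44 ± 0.12, adjusted p = 0.0057) and H2AC25 (0.41 ± 0.12, adjusted p = 0.0078) did the same in edgeR. H3C10 measured 0.75 ± 0.32 with an edgeR adjusted p of 0.073, and was called under upper-quartile factors (0.80), under library size alone (0.81) and without DMSO replicate 2 (1.26). H4C5 (1.08 ± 0.57) and H2BC9 (0.01 ± 0.26) mark the ends of this range.

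By family, 5 of 10 tested H2B genes rose, as did 2 of 6 H2A, 1 of 4 H3 and 1 of 4 H4 genes, and the medians were 0.65, 0.50, 0.64 and 0.69. The filter removed more H3 and H4 genes than H2B genes, with 9 of 13 H3, 8 of 12 H4, 9 of 15 H2A and 6 of 16 H2B genes below it. Summed over all members of a family, without the filter, the ratio of CBL0137 to DMSO was 1.946 for H2A, 1.829 for H2B, 1.632 for H3 and 1.565 for H4. H2A and H2B together held most of the counts, at 41.16 and 54.97 raw CPM in DMSO, against 5.606 for H3 and 6.916 for H4. The H3 and H4 sums may lack reads, because some of these genes share identical stretches (below). In the FPKM deposited by the authors, a level per length, H4C14 stood at 3.10 ± 0.78 in DMSO and 7.14 ± 0.58 in CBL0137. H4C15 stood at 2.11 ± 0.38 and 4.86 ± 0.21 (mean ± SD, n = 2). Both had few or no counts. The differences between families were not tested.

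The 32 clustered genes below the filter had at most 15 counts in any library. Of these, 10 were listed at 0 counts in all 4 libraries, among them H3C14 and H3C15, whose last 300 coding bases are identical, so that a read within that stretch could not be placed on either alone. H4C14 and H4C15, and H4C11 and H4C12, are identical in the same stretch, and their counts are uncertain for that reason. Reads with more than 1 alignment made up 6.43% to 7.78% of each library and were not counted to a gene. Together the 32 genes had 66 and 72 counts in DMSO and 82 and 97 in CBL0137. As a share these were 2.824 and 3.126 raw CPM in DMSO, and 4.003 and 4.251 in CBL0137.

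The share of genes called depended on their level. Of all tested genes between 1 and 3 CPM, 15.3% were called higher, against 5 of 9 clustered genes at that level. Between 3 and 10 CPM the values were 14.3% and 2 of 4. Between 10 and 100 CPM 2.87% of all genes were called higher, against 2 of 5 clustered genes, H2AC6 and H2BC5. Under 1 CPM, 0 of 6 clustered genes were called higher and 8.94% of all genes were.

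Of the 9 clustered genes that rose, 8 have an annotated transcript that ends near a poly(A) signal. A poly(A) signal, AATAAA or ATTAAA in the last 50 bases of at least 1 annotated transcript, was found for 18 of the 56 clustered genes, and 14 of these were tested. The same search found one in 85.1% of 9870 other protein-coding genes. It is a match of letters and does not show that the signal is used. In H2BC9 (tested, not called) and H4C11 (below the filter) the annotated transcript ends at the stem-loop. The match there lies before the stem-loop and not after it. Of the 14, 8 rose and 0 fell, and the median was 0.86. Of the 38 genes without such a signal, 28 were below the filter, and of the 10 tested 1 rose (H2AC11) and 1 fell (H3C1), with a median of 0.31. All 14 tested genes with a signal passed the filter in both conditions. Of 11 tested genes with an annotated transcript of more than 1 exon, 8 rose, and of 13 with a single exon, 1 rose.

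The 18 genes with a poly(A) signal summed to 76.80 and 73.25 raw CPM in DMSO and 152.8 and 158.2 in CBL0137, a ratio of 2.073. The 38 genes without one summed to 35.00 and 32.26 in DMSO and 42.81 and 47.29 in CBL0137, a ratio of 1.34, and 1.384 without H2BC12. The sums in both sets did not overlap between conditions. Whether the ratios of the 2 sets differ was not tested. The deposited counts do not show where in a gene the reads lie, so the signal describes the annotation and not the messages made here.

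**Figure D3:**
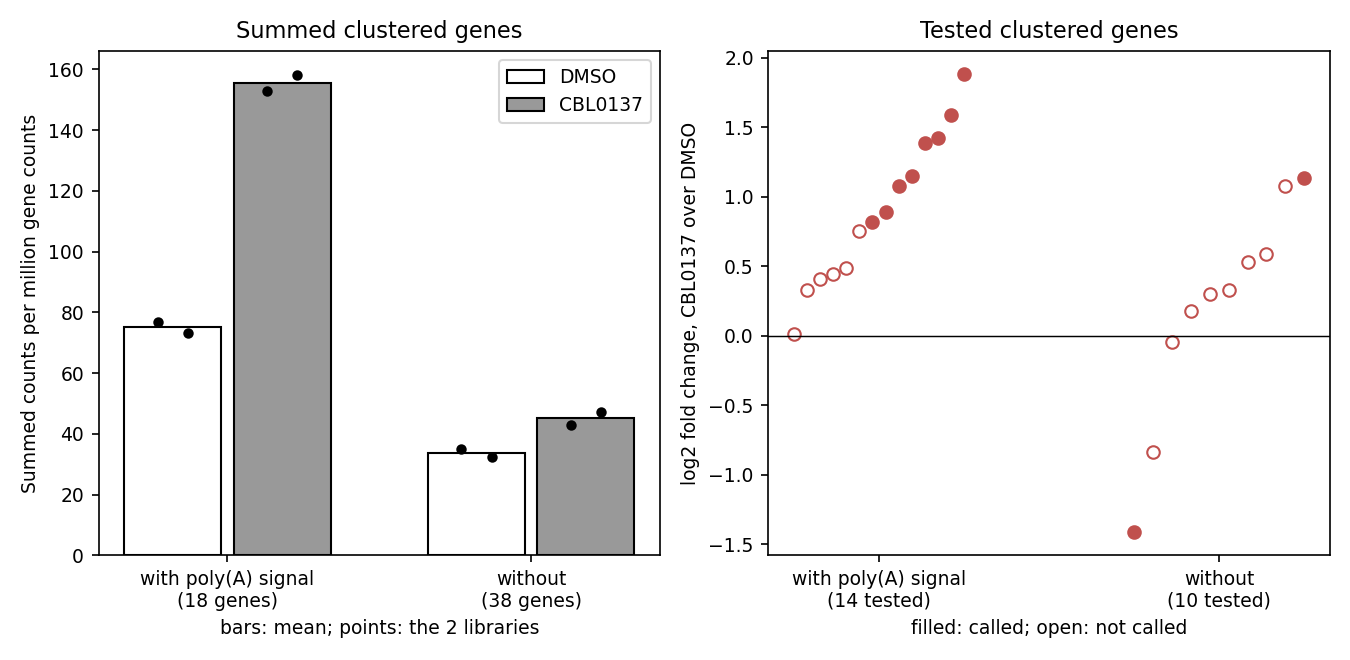
Left, summed raw CPM of clustered genes with and without a poly(A) signal at an annotated transcript end (bars are means, points the 2 libraries of DMSO in white and CBL0137 in grey); right, log2 fold changes of the tested genes in each set (filled points were called). The set with a signal moves from 75.02 to 155.5 on average and holds 8 of the 9 rises, and the set without one moves from 33.63 to 45.05.

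Of 7 clustered genes known for polyadenylated messages (H2AC6, H2BC4, H2BC5, H2BC11, H2BC12, H2BC21 and H4C8), 4 rose, 0 fell and 3 were not called, with a median of 0.89. Of all tested clustered genes 9 of 24 rose, and 6.88% of all genes tested. These 4 are also among the 8 above. H2BC12 is on this list but stood in the set without a signal. It held 494 of that set's 818 counts in DMSO replicate 1 and 424 of 743 in replicate 2. The 2 sets therefore do not separate polyadenylated messages cleanly. RNAs that have no poly(A) tail gave almost no counts. Of 10 such RNAs looked for, 6 had a row, 4 of them (RN7SK, RMRP, TERC and RNU7-1, the RNA of the U7 particle) were at 0 in every library, and the 6 summed to 11 and 6 counts in DMSO and 6 and 8 in CBL0137. The selection of RNA for sequencing was not given in the sources used here, and its part in the clustered values was not tested.

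The clustered genes on chromosome 6 lie in 3 groups. The first (25723625 to 26285866) holds 25 genes, of which 11 were tested, 5 rose and 1 fell. In the second (27093676 to 27115341) 4 of 5 genes were tested and 2 rose, and in the third (27775257 to 27861669) 4 of 15 were tested and 1 rose. On chromosome 1, 3 of 9 genes of the main group were tested and H2BC18 rose, and the pair H2AC25 and H2BC26 further along was not called. Each group on chromosome 6 held genes that rose and tested genes that were not called.

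**Figure D4:**
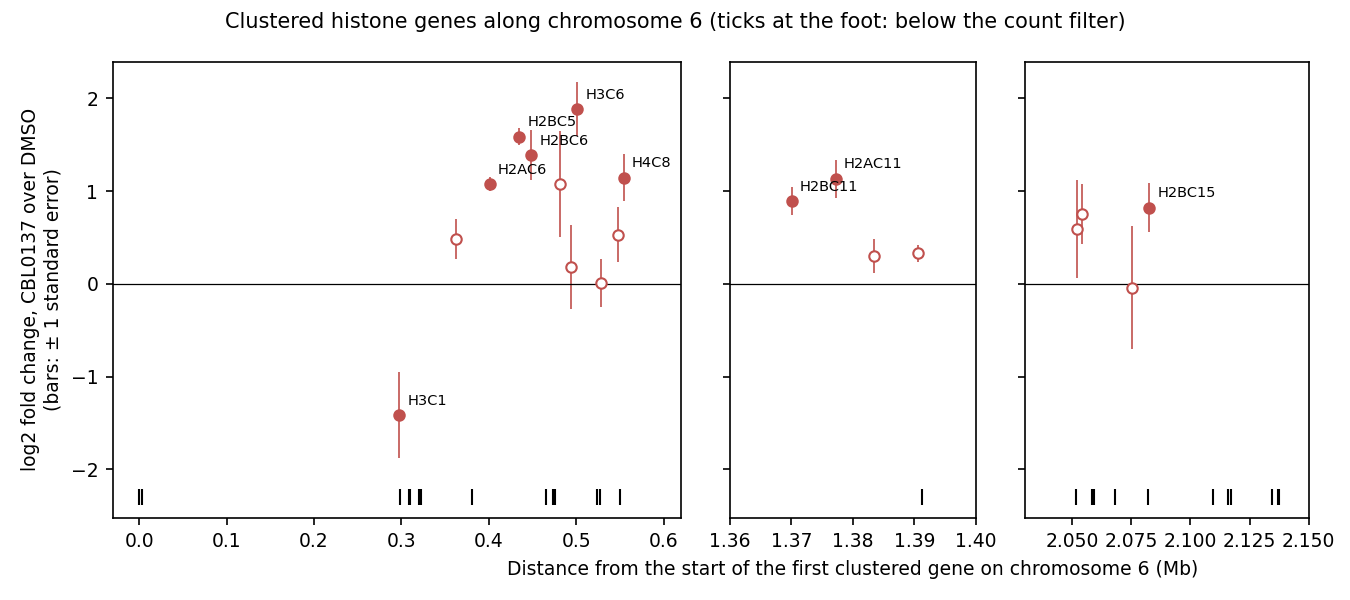
Log2 fold change (bars are 1 standard error, filled points called) of clustered genes against distance from the start of the first clustered gene on chromosome 6, in Mb, drawn in 3 panels of different scale; ticks at the foot mark genes below the count filter. Named points are called genes, with H2AC6, H2BC5, H2BC6, H3C6 and H4C8 above 0 and H3C1 below 0 in the first panel.

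Several H2A and H2B genes stand head to head and share the short stretch between their starts. For H2BC11 and H2AC11, which rose together, that stretch is chr6:27100575-27100821 (GRCh37, plus strand). Capitals mark TATAAA (found 3 times), CCAAT (4 times) and the octamer ATTTGCAT (once), each on either strand, with 2 of the TATAAA matches overlapping each other on opposite strands. For H2BC4 and H2AC6, of which H2AC6 rose and H2BC4 did not, the stretch is chr6:26124155-26124372 (GRCh37, plus strand), which holds CCAAT 3 times, the octamer once and TATAAA 0 times.
H2BC11 and H2AC11: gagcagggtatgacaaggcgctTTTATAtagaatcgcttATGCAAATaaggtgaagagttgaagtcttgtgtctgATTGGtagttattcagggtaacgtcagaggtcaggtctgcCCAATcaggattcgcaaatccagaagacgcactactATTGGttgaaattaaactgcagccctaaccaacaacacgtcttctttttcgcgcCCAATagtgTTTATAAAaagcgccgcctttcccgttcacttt
H2BC4 and H2AC6: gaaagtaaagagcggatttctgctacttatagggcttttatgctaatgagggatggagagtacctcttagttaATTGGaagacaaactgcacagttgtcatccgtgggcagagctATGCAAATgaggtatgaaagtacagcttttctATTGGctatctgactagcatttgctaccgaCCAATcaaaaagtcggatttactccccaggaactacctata
H2BC4 measured 3.107 and 2.443 CPM in DMSO and 3.476 and 4.274 CPM in CBL0137, a difference of 0.48 ± 0.22 on the log2 scale (edgeR adjusted p = 0.084). It was called without CBL0137 replicate 1 (0.62, adjusted p = 0.046). H2AC6, H2BC26 and H3-3B share exon bases with another annotated gene on their own strand, so reads there may have been left out or counted to the wrong gene. Of the tested members, H2BC4, H2BC6, H2BC18, H4C8, H2AZ1, H3-3A, H3-3B, MACROH2A1 and MACROH2A2 share exon bases with a gene on the other strand, and without a stated strand setting reads of the partners cannot be told apart. Across RefSeq promoters (GRCh38.p14, 250 bases before to 50 after a start), which matched 65 of the 70 symbols, TATAAA was found in 67.3% of 52 clustered promoters and 11.5% of all 35116. CCAAT was found in 84.6% and 34.6%, again on either strand. By family CCAAT was in 100% of the H2A, H2B and H3 promoters and in 20% of 10 H4 promoters. The octamer, the site of the factor OCT1, was found in 75% of 16 clustered H2B promoters and 73.3% of 15 H2A promoters, in 9.09% of 11 H3 and 0% of 10 H4 promoters, and in 1.77% of all. In this window, which also takes in bases outside the stretches printed above, H2AC6 and H2BC4 each have a TATAAA match, and H2BC5, which rose, has no octamer match.

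Among the variants, H2AX and H2AZ1 fell from high levels, and H2AZ2 was lower without passing the fold limit. H2AX, the H2A form that is phosphorylated beside DNA breaks (chromosome 11, 118964584 to 118966175), measured 259.6 and 269.3 CPM in DMSO and 138.6 and 138.3 CPM in CBL0137. The change of -0.93 ± 0.04 (edgeR adjusted p = 3.7e-15) was called in every alternative run at the fold limit of 1.5 but not above a fold of 2, and the libraries of each condition lay close together. H2AX is also the variant whose gene holds both the stem-loop and a poly(A) signal.

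H2AZ1, one of 2 genes for H2A.Z, a variant placed at promoters and enhancers, measured 188.3 and 195.2 CPM in DMSO and 118.7 and 121.0 CPM in CBL0137 (-0.68 ± 0.04, edgeR adjusted p = 2.5e-12). Its sister gene H2AZ2 measured 170.9 and 173.5 CPM in DMSO and 123.1 and 117.7 CPM in CBL0137. At -0.52 ± 0.04 (edgeR adjusted p = 4.5e-10) H2AZ2 stayed inside the fold limit, and neither gene's conditions overlapped. Summed, H2AX, H2AZ1 and H2AZ2 took 604.9 and 623.7 raw CPM in DMSO and 389.9 and 382.8 in CBL0137, a ratio of 0.6289. In raw CPM this difference was larger than that over all clustered genes.

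The replacement histone H3.3 comes from H3-3A and H3-3B and is laid down outside replication. H3-3B measured 397.5 and 414.3 CPM in DMSO and 439.8 and 472.1 CPM in CBL0137, a difference of 0.17 ± 0.04 (edgeR adjusted p = 8.8e-04) that stayed far inside the fold limit. H3-3A measured 199.9 and 196.6 CPM in DMSO and 207.7 and 193.6 CPM in CBL0137, and its conditions overlapped (0.02 ± 0.04). MACROH2A1 and MACROH2A2, large variants of silent chromatin, measured -0.01 ± 0.04 and -0.04 ± 0.04. The signs of both macroH2A genes turned under upper-quartile factors (0.04 and 0.01) and library size alone (0.05 and 0.03), so no direction is given for them.

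H2AJ, an H2A variant known to build up in senescent cells, measured 21.36 and 19.85 CPM in DMSO and 29.57 and 28.54 CPM in CBL0137. Its log2 fold change of 0.49 ± 0.08 (edgeR adjusted p = 2.9e-05) was below the fold limit in the count tests, and 0.59 on the log2(FPKM + 1) scale, where it was called. H4-16, an H4 gene that stands alone on chromosome 12 near H2AJ, had 15 and 14 counts in DMSO and 26 and 43 in CBL0137. It holds the stem-loop, and no poly(A) signal was found at its annotated ends. It rose by 1.28 ± 0.39 (edgeR adjusted p = 0.011), and lost its call under DESeq2 (adjusted p = 0.076), without DMSO replicate 2 (1.23, adjusted p = 0.057) and without CBL0137 replicate 2 (0.95, adjusted p = 0.19).

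Levels of different genes are compared per length, as the FPKM deposited by the authors. In DMSO, H2AZ1 stood highest among the members at 333 ± 0.633 FPKM (SD, n = 2 here and below), followed by H3-3A at 146 ± 2.27 and H2AX at 115 ± 2.50. MACROH2A2 (97.5 ± 2.11) and H3-3B (97.0 ± 2.69) did not differ beyond their spread, and H2AZ2 followed at 85.1 ± 1.07. Among clustered genes H2BC12 stood first at 36.9 ± 3.63, ahead of H2AC6 at 10.9 ± 0.420 and H2BC5 at 9.33 ± 1.12, whose ranges did not overlap. In CBL0137, H2AZ1 (211 ± 5.53) and H3-3A (153 ± 5.43) kept the first places. H3-3B at 114 ± 6.10 and MACROH2A2 at 99.0 ± 0.293 then stood above H2AX at 63.1 ± 0.401, which no longer differed from H2AZ2 at 64.7 ± 2.37 beyond their spread. H2BC5 at 29.4 ± 0.950 stood above H2AC6 at 24.1 ± 2.38 in CBL0137, the reverse of their order in DMSO.

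The processing genes were not called. SLBP measured 81.49 and 90.95 CPM in DMSO and 77.43 and 66.62 CPM in CBL0137, which is -0.26 ± 0.06 on the log2 scale (edgeR adjusted p = 0.0018). LSM11, a protein of the U7 ring, measured 9.803 and 9.371 CPM in DMSO and 7.143 and 6.433 CPM in CBL0137 (-0.50 ± 0.14, edgeR adjusted p = 0.0051). Both lay below DMSO in each CBL0137 library without passing the fold limit. NPAT (0.002 ± 0.06) and LSM10, the partner of LSM11 (0.03 ± 0.07), had conditions that overlapped. Of 19 other genes of histone message ends and decay, 0 were called by edgeR, with 3 higher and 6 lower at an adjusted p under 0.05 alone, among them the Sm ring proteins SNRPG (-0.56 ± 0.05) and SNRPE (-0.53 ± 0.05). At that limit alone, 17.5% of all genes were higher and 19% lower. Of 7 regulators of histone gene transcription, 0 were called by edgeR, and 2 were lower and 1 higher at the adjusted p alone. CDK2 (-0.25 ± 0.06) and POU2F1, the gene for OCT1 (-0.14 ± 0.05, edgeR adjusted p = 0.043), were the lower ones, and HINFP, a factor for H4 genes, was the higher one (0.25 ± 0.075).

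Of 24 S phase genes, 5 fell, 0 rose and 19 were not called, with a median of -0.37, and 20 were lower at an adjusted p under 0.05 alone. Over all genes tested, 2.73% were called lower and 19% were lower at that adjusted p alone. RRM2, a subunit of the enzyme that makes deoxynucleotides, measured -1.05 ± 0.04, and the replication clamp PCNA measured -0.44 ± 0.04 and was not called. CENPA, the centromeric H3 variant, fell (-0.78 ± 0.07). Whether the fall in S phase genes has a part in the values of H2AX, H2AZ1 or the clustered genes was not tested.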

How the data were processed

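The deposited table holds 60617 gene rows for 4 libraries. Per the submitters' processing notes, reads were trimmed with Trim Galore and mapped with HISAT2. The authors made the deposited counts per gene with HTSeq 0.11.1 on hg19. They also deposited FPKM, described as scaled by gene length and depth, and ran DESeq2 1.26.0. The notes also name mm10, with no use stated. The FPKM tool, annotation release, strand setting and RNA selection were not given in the sources used here. HTSeq's rows that name no gene held 23.7% to 24.8% of each column and were left out. Symbols, transcripts and positions came from GENCODE 44 lifted to GRCh37.

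Counts were tested with edgeR 4.0.16 in R 4.3.3 (TMM, filterByExpr by group at a minimum count of 10, quasi-likelihood test, no covariate). A standard error is the log2 fold change divided by the root of F. On simulated counts of this comparison (17204 genes tested) the test called 89% of genes changed 2-fold, 64% of those changed 1.6-fold and 3 of 17004 unchanged genes. The changed genes were drawn only from genes above a minimum mean count. The 89% and 64% therefore do not apply to tested members with few counts, such as H3C1 and H2AC20. Alternatives used DESeq2 1.42.0, limma 3.58.1, other factors and filters, a replicate term, and each library left out. The members and lists were chosen with earlier results of these data known. Every tested member could be named, and at most 4 genes of each other list, those with the smallest adjusted p. On FPKM the test used log2(FPKM + 1) for genes at 1 FPKM or more.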

Additional observations from a re-analysis of the deposited data

Results flagged for a closer look

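Of 10 members with 0 deposited counts in all 4 libraries, 5 had FPKM above 0 in the authors' table. Of these, 3 were higher in both CBL0137 libraries than in both DMSO libraries. In CPM, 33.5% of all genes tested were higher in that way. H3C14 stood at 0.920 ± 0.00615 FPKM in CBL0137 and 0.469 ± 0.0495 in DMSO (mean ± SD, n = 2). H3C15, which has the same last 300 coding bases, stood at 0.902 ± 0.0277 and 0.456 ± 0.0672. The FPKM of H3C14 and H3C15 may rest on the same reads, so they are not separate observations. H2AC7, which shares exon bases with another annotated gene, stood at 0.759 ± 0.0669 and 0.471 ± 0.230. H3C4 and H2AC17, which also share exon bases with another annotated gene, overlapped between conditions. H3C4 stood at 0.627 ± 0.504 in CBL0137 and 0.192 ± 0.114 in DMSO, and H2AC17 at 0.837 ± 0.266 and 0.814 ± 0.258. All 5 genes were below the count filter and were not tested.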

How the results depend on the processing

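Of 13 called members, 10 (H2AC6, H2AC11, H2BC5, H2BC6, H2BC11, H2BC18, H3C6, H4C8, H2AX and H2AZ1) stayed called at the fold limit of 1.5 in every alternative that could test them, and H3C1, H2BC15 and H4-16 did not. Calls over all genes were 1663, but 1053 under DESeq2, 577 under limma-trend on log2(FPKM + 1), 6314 with no fold limit and 736 above a fold of 2, and 1343 to 1591 with a library left out. Higher and lower calls were 1191 and 472, and 1443 and 365 under library size alone. Clustered calls were 9 to 10 with a library left out, variant calls 2 to 3, and processing calls 0 to 0. With no fold limit 6 variants and 2 processing genes passed, and above a fold of 2, 1 variant. Without H2AC6 the log2 ratio of summed clustered shares was 0.79 in place of 0.88, and without H3-3B that of variants -0.24 in place of -0.11.

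Signs turned among members that were not called. Upper-quartile factors gave H4C12 0.0043, MACROH2A1 0.0392 and MACROH2A2 0.0115, and library size as the one scaling gave 0.0173, 0.0528 and 0.0251. On log2(FPKM + 1) they were 0.298, 0.20 and 0.0231. Limma-voom gave H4C12 0.51, no count filter gave H2BC9 -0.0023 and NPAT -0.0095, and the 1 CPM filter gave MACROH2A1 0.0032. With a library left out, values ran from -0.8649 to 2.0391 for H4C12, -0.1334 to 0.994 for H2BC26, -0.1553 to 0.1781 for H2BC9, -0.047 to 0.0389 for NPAT, -0.0068 to 0.0581 for LSM10 and -0.038 to 0.0647 for H3-3A. The cause was not tested. No label says that equal replicate numbers pair libraries, and same-numbered deviations correlated at -0.0209. With the replicate block 1576 genes, 10 clustered, 3 variant and 0 processing genes were called, and H4C12 turned to 0.0863. Members with few counts had standard errors of up to 0.66.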
